A study of Homo sapiens with 8 samples.

Results

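TXNIP, the alpha-arrestins ARRDC1 to ARRDC4, the transcription factor gene MLXIP, and the thioredoxin and thioredoxin reductase genes TXN, TXN2, TXNRD1 and TXNRD2 were followed in HEK293T cells given DZNep. The 10 genes were chosen by name, and the Ensembl identifiers of the count table were matched to GENCODE symbols. They are 10 of the 57500 genes counted and 10 of the 19171 that had enough reads to be tested. HEK293T is an established line derived from human embryonic kidney, and DZNep (3-deazaneplanocin A) blocks AHCY, the enzyme that clears S-adenosylhomocysteine after methylation reactions. RNAseq was done on 4 libraries of vehicle-treated cells (Control) and 4 libraries of cells treated with 100 µM DZNep, all collected at 48 h. Both groups are the same line with no further genetic change named, grown in DMEM by the sample labels and in RPMI by the study's methods. The study calls the replicates biological, the labels do not say whether they were separate cultures, and p-values measure only the spread between these libraries. Library totals lay between 25043058 and 44902779 counts.

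TXNIP binds thioredoxin through a disulfide, limits its reducing activity, and also restrains glucose uptake by drawing glucose transporters into endosomes. TXNIP and the ARRDC proteins share the arrestin fold and form the alpha-arrestin family, adaptors that bring WW-domain ubiquitin ligases of the NEDD4 family to membrane proteins. MLXIP (MondoA) pairs with MLX and, when glucose phosphates build up, activates TXNIP and ARRDC4, which are textbook targets of this pair. Thioredoxin reduces disulfides in peroxiredoxins, ribonucleotide reductase and other proteins, and is itself reduced by thioredoxin reductase, with TXN and TXNRD1 acting mainly in the cytosol and nucleus and TXN2 and TXNRD2 in mitochondria.

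The 250 bases upstream of the outermost RefSeq start are shown for TXNIP and ARRDC4, because these genes share a textbook activator and had log2 fold changes of opposite sign here. The sequences are from RefSeq on GRCh38.p14, each 5′ to 3′ on the strand of its gene. TXNIP is at chr1:145996580-145996829 on the minus strand and ARRDC4 at chr15:97960453-97960702 on the plus strand. Capitals mark motif matches on either strand.
TXNIP: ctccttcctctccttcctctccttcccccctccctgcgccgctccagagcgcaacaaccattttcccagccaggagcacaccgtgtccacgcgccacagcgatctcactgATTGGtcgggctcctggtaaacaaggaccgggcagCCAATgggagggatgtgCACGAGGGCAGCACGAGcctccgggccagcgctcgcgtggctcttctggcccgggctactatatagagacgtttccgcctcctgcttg
ARRDC4: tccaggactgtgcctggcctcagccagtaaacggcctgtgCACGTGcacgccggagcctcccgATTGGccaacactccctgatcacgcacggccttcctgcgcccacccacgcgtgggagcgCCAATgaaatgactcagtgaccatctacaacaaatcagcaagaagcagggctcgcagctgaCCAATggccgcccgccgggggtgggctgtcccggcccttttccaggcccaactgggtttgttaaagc

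The motifs searched on both strands were the E-box CACGTG, an E-box-like pair in the spacing of a carbohydrate response element (CACGNG, any 5 bases, CACGNG), the CCAAT box (CCAAT), and the core of the antioxidant response element (TGACNNNGC). The TXNIP window shown held 1 match to the paired motif, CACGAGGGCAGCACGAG, from -88 to -72 relative to the start, and the window of the other RefSeq start of TXNIP held no motif. Of the 35116 promoter windows of this length, 16 held that motif, or 0.0456%. The ARRDC4 window held no match to the paired motif and 1 E-box from -210 to -205, a motif found in 6.34% of the windows. A CCAAT box, found in 32% of the windows, occurred 2 times upstream of TXNIP and 3 times upstream of ARRDC4. It was also present upstream of ARRDC1, ARRDC2, ARRDC3, MLXIP and TXNRD1. The antioxidant response core, found in 10.9% of the windows, was present upstream of both RefSeq starts of TXNRD1 and of 1 start of ARRDC2, and the TXN window held none of the 4 motifs. These are matches of letters only. RefSeq windows were found for 9 of the 10 genes, not for TXN2.

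**Figure D1:**
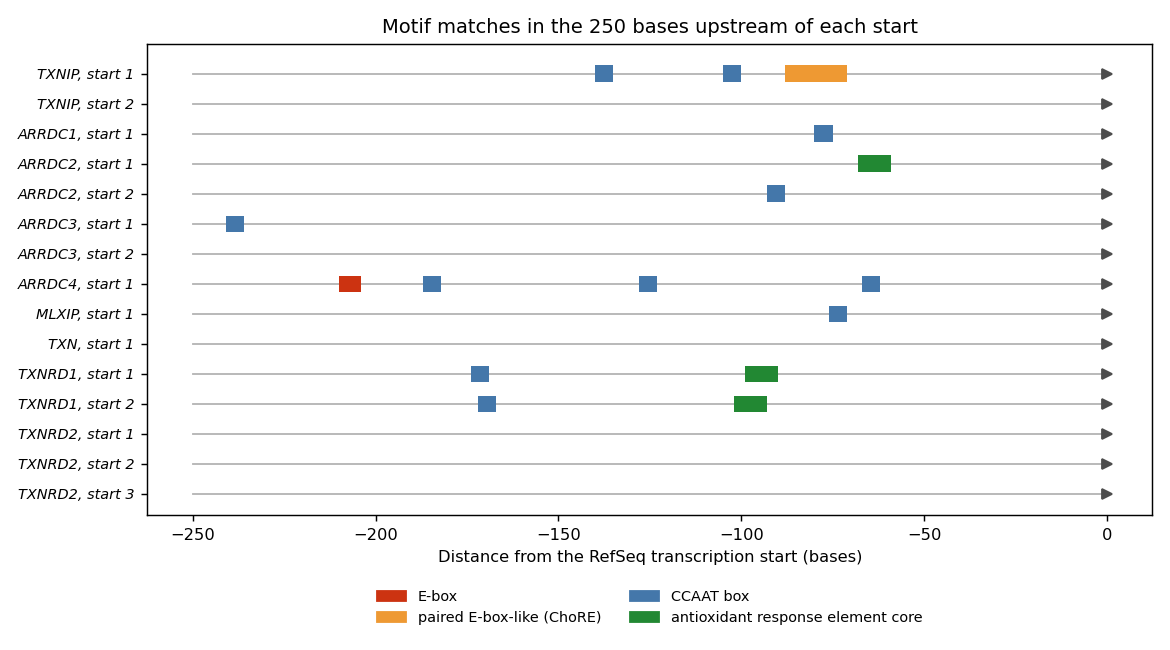
Motif matches in the 250 bases upstream of each RefSeq start, drawn against the distance from that start in bases. Colored blocks are matches on either strand and arrowheads mark the starts. The paired E-box-like motif appears once, at -88 to -72 of TXNIP, and the E-box once, at -210 to -205 of ARRDC4.

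TXNIP was higher with DZNep in every pair of libraries with the same replicate number, while the groups overlapped. ARRDC4 and ARRDC1 fell to under their Control ranges, and ARRDC3 and the mitochondrial thioredoxin TXN2 rose above theirs. By edgeR's quasi-likelihood test with Benjamini-Hochberg adjustment over all 19171 genes, these 4 of the 10 genes passed an adjusted p-value of 0.05, 2 higher and 2 lower. Over all genes tested, 19.1% were higher and 21.8% were lower at that threshold, so that the share of the 10 genes that changed was close to the 40.8% of all genes. The median log2 fold change of the 10 genes was 0.02, and that of all genes tested was -0.03. In bulk RNA, a change in the number of cells that carry a transcript and a change in its amount per cell cannot be told apart.

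TXNIP (ENSG00000265972, chromosome 1 of GRCh38 from 145992435 to 145996579, minus strand) had normalized counts of 4122, 3264, 4958 and 1927 in Control replicates 1 to 4. With DZNep they were 6545, 4744, 7881 and 4043 in replicates 1 to 4. The highest Control library, replicate 3, lay above the DZNep libraries of replicates 2 and 4, and replicate 4 was the lowest of each group. The means were 3568 ± 1294 and 5803 ± 1741 (SD, n = 4 each). The log2 fold change of 0.68 ± 0.30 (SE) fell short of the threshold, at an adjusted p of 0.0974 by edgeR. The log2 ratios within pairs of the same number were 0.67, 0.54, 0.67 and 1.07. All 4 ratios were above 0, as they were for 33.8% of all genes tested. Blocking on the replicate number gave 0.71 ± 0.12 (SE) for TXNIP (edgeR adjusted p = 0.000121), in a fit in which 28.8% of all genes were higher and 30.2% lower. Over the other alternatives its adjusted p lay between 0.0538 and 0.258. Replicate 4 also had the largest share of mitochondrial transcripts in each group, 13.7% in Control and 10.1% in DZNep, against a lowest value of 3.02%. The part of that share in the TXNIP values was not tested.

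**Figure D2:**
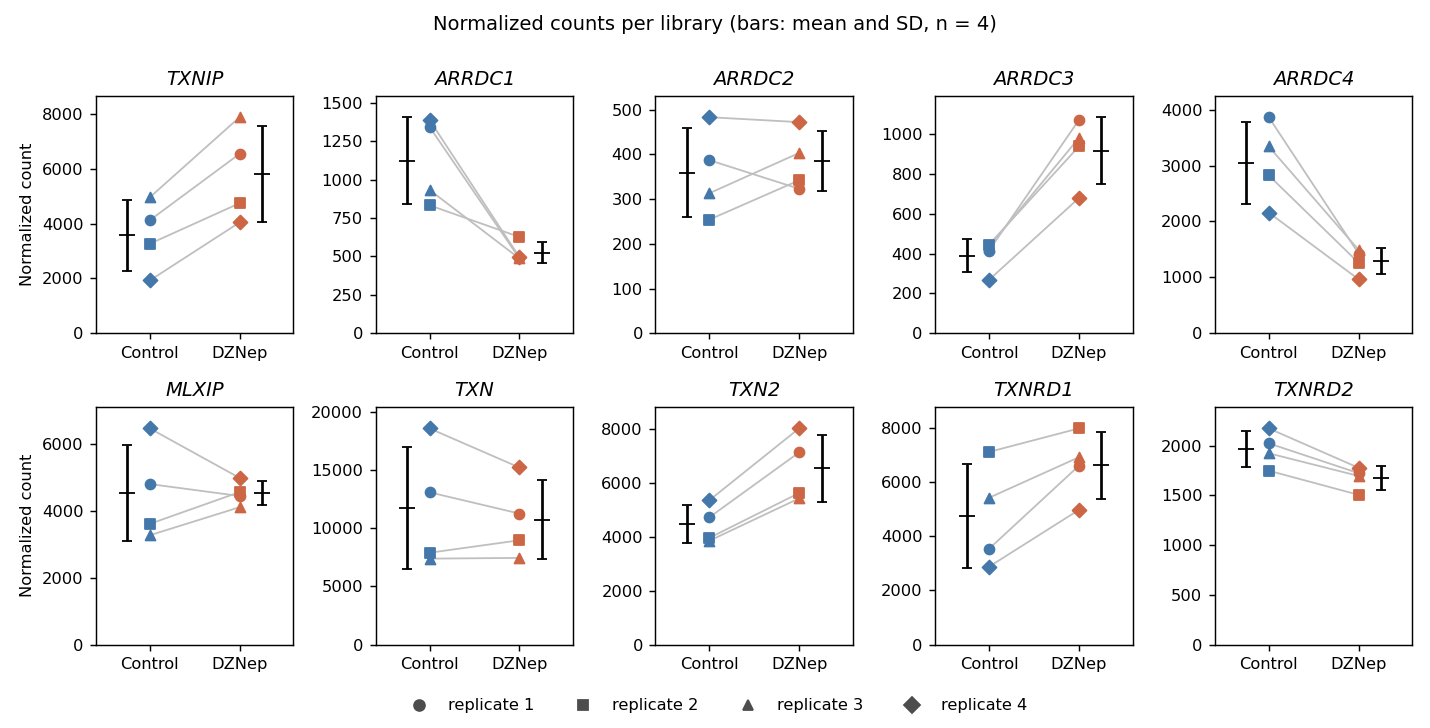
Normalized counts of the 10 genes in each library (y axis, from 0), Control in blue and DZNep in orange, with lines joining libraries of the same replicate number. Black bars give the mean and SD of 4 libraries. TXNIP is higher along all 4 lines, with overlapping ranges, whereas the DZNep libraries of ARRDC1 and ARRDC4 lie below and those of ARRDC3 and TXN2 above every Control library.

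ARRDC4 (ENSG00000140450, chromosome 15 from 97960703 to 97973833), an adaptor linked like TXNIP to glucose transporter uptake, had normalized counts of 3865, 2824, 3341 and 2159 in Control replicates 1 to 4. With DZNep, the counts were 1427, 1262, 1493 and 966. The groups did not overlap, all DZNep values being lower, and replicate 4 was again the lowest in each group. ARRDC4 fell by 1.27 ± 0.21 (SE) on the log2 scale (edgeR adjusted p = 0.000953). The log2 ratios within pairs were -1.44, -1.16, -1.16 and -1.16. Thus all 4 pairs of ARRDC4 were below 0, as they were for 31.6% of all genes tested.

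ARRDC1 (ENSG00000197070, chromosome 9 from 137605685 to 137615360) encodes an adaptor that recruits TSG101 and buds small vesicles from the plasma membrane. Its normalized counts were 1343, 833, 933 and 1388 in Control replicates 1 to 4 and 488, 627, 487 and 496 in the DZNep libraries. The Control libraries of replicates 1 and 4 were high, while 3 of the DZNep libraries were nearly equal, so that the fall was steeper in pairs 1 and 4 (-1.46 and -1.48) than in pairs 2 and 3 (-0.41 and -0.94). The log2 fold change was -1.13 ± 0.20 (SE), at an adjusted p of 0.00138 by edgeR.

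ARRDC3 (ENSG00000113369, chromosome 5 from 91368631 to 91383317), an adaptor for the internalization and degradation of receptors such as beta-adrenergic receptors and integrin beta 4, moved upward. Its normalized counts were 415, 445, 434 and 268 in Control replicates 1 to 4 and 1069, 937, 979 and 678 in the DZNep libraries. The groups did not overlap, and replicate 4 was once more the lowest of each. The log2 fold change was 1.21 ± 0.21 (SE), at an adjusted p of 0.00117 by edgeR, and the ratios within pairs were 1.37, 1.08, 1.17 and 1.34. ARRDC2 (ENSG00000105643, chromosome 19 from 18001132 to 18014102), a further adaptor of the family, had normalized counts between 254 and 483 in Control and between 323 and 472 in the DZNep libraries. It was higher in pairs 2 and 3 and lower in pairs 1 and 4, with a log2 difference of 0.07 ± 0.22 (SE; edgeR adjusted p = 0.816). Of the 4 ARRDC genes, 2 thus fell, 1 rose and 1 did not pass the test. Of all genes tested, 21.8% were lower and 19.1% higher by the same test, and 4 genes are too few to set against these shares.

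The antisense partner of ARRDC3 moved against it. ARRDC3-AS1, a long noncoding RNA transcribed from the opposite strand of the same locus, had normalized counts of 86.3, 94.6, 84.2 and 74.1 in Control and 13.6, 12.9, 17.3 and 12.4 in the DZNep libraries. Its log2 fold change was -2.61 ± 0.25 (SE), at an adjusted p of 4.39e-05 by edgeR. The 2 genes share 145 exonic bases, which is 2.91% of the merged exons of ARRDC3. ARRDC1-AS1, which shares 35 exonic bases with ARRDC1, did not follow it, with a log2 difference of -0.10 (edgeR adjusted p = 0.717). Whether the counting used strand is not given in the sources used here, so reads in the shared bases cannot be assigned to a strand.

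MLXIP (ENSG00000175727, chromosome 12 from 122078756 to 122147344), the glucose-sensing partner of MLX, had normalized counts of 4804, 3611, 3271 and 6469 in Control replicates 1 to 4. The DZNep libraries had 4446, 4563, 4110 and 4987, which all lie inside the Control range. Its log2 fold change was -0.03 ± 0.21 (SE), at an adjusted p of 0.919 by edgeR, and it was higher in 2 of the 4 pairs. Its sign differed between scalings, from -0.03 with TMM to 0.07 with library totals alone, so that no direction can be given.

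MLX and MLXIPL, the other genes of glucose sensing, passed the test, in opposite directions. MLX, the obligate partner of MLXIP, rose from a mean of 1736 ± 192 to 2875 ± 196 normalized counts (SD, n = 4), or 0.70 ± 0.14 (SE) on the log2 scale (edgeR adjusted p = 0.00235). MLXIPL (ChREBP), the paralog of MLXIP that also pairs with MLX, had 600, 362, 442 and 742 normalized counts in Control and 137, 84.6, 186 and 175 in the DZNep libraries. It fell by 1.91 ± 0.30 (SE) on the log2 scale (edgeR adjusted p = 0.000688). In the arm that runs through MAX, MYCN fell from a mean of 38.9 ± 8.93 to 18.2 ± 0.76 normalized counts (SD, n = 4, log2 fold change -1.11, adjusted p 0.00924). Of the 12 genes of the MLX and MAX network, 1 rose and 2 fell, next to 19.1% higher and 21.8% lower of all genes.

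TXN and TXNRD1, the cytosolic pair, differed among libraries of the same group, and by the same replicate numbers in both groups. TXN (ENSG00000136810, chromosome 9 from 110243810 to 110256507), which encodes cytosolic thioredoxin, had normalized counts of 13097, 7896, 7390 and 18594 in Control replicates 1 to 4. The DZNep libraries had 11269, 8967, 7453 and 15232. In both groups replicates 1 and 4 were high and replicates 2 and 3 were low, and the highest Control library held 2.52 times the normalized count of the lowest. The mitochondrial share was likewise higher in replicates 1 and 4 (7.76% and 13.7% in Control, 7.04% and 10.1% in DZNep) than in replicates 2 and 3 (3.02% and 3.16%, 4.25% and 4.44%), and its part in the TXN and TXNRD1 values was not tested. The log2 fold change was -0.16 ± 0.32 (SE), at an adjusted p of 0.724 by edgeR, and the sign turned to 0.15 without Control replicate 4 (adjusted p 0.714).

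TXNRD1 (ENSG00000198431, chromosome 12 from 104215779 to 104350307), the selenoprotein that reduces TXN, had normalized counts of 3533, 7112, 5419 and 2873 in Control and 6600, 7981, 6915 and 4970 in the DZNep libraries. Here replicates 1 and 4 were low and replicates 2 and 3 high in each group, where TXN was high in 1 and 4. TXNRD1 was higher with DZNep in all 4 pairs, with log2 ratios of 0.90, 0.17, 0.35 and 0.79. Its log2 difference of 0.46 ± 0.28 (SE) did not pass (edgeR adjusted p = 0.215). It passed when blocked on the replicate number (0.52, adjusted p 0.00356) and without Control replicate 2 (0.72, adjusted p 0.0408), and its adjusted p lay between 0.0904 and 0.515 under the other alternatives.

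Of the mitochondrial pair, the thioredoxin passed the test and the reductase did not. TXN2 (ENSG00000100348, chromosome 22 from 36467046 to 36481640), the mitochondrial thioredoxin, had normalized counts of 4723, 3959, 3852 and 5356 in Control replicates 1 to 4 and 7134, 5626, 5427 and 8026 in the DZNep libraries. The lowest DZNep library lay just above the highest Control library. TXN2 rose by 0.52 ± 0.18 (SE) on the log2 scale (edgeR adjusted p = 0.0400), and the ratios within pairs were 0.59, 0.51, 0.49 and 0.58. The adjusted p-value rose to 0.0736, 0.0777 and 0.104 without Control replicate 1, 2 or 3 and to 0.0961 and 0.0935 without DZNep replicate 1 or 4, and it was 0.000815 with the block. TXNRD2 (ENSG00000184470, chromosome 22 from 19875517 to 19941820), the mitochondrial reductase, had between 1748 and 2173 normalized counts in Control and between 1505 and 1777 in the DZNep libraries. It was lower in all 4 pairs by small amounts, with a log2 difference of -0.26 ± 0.13 (SE; edgeR adjusted p = 0.143), or 0.0560 with the block. For both TXN2 and TXNRD2, replicates 1 and 4 lay above replicates 2 and 3 in each group, as they did for TXN. The part of the mitochondrial share in the TXN2 and TXNRD2 values was not tested either.

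**Figure D3:**
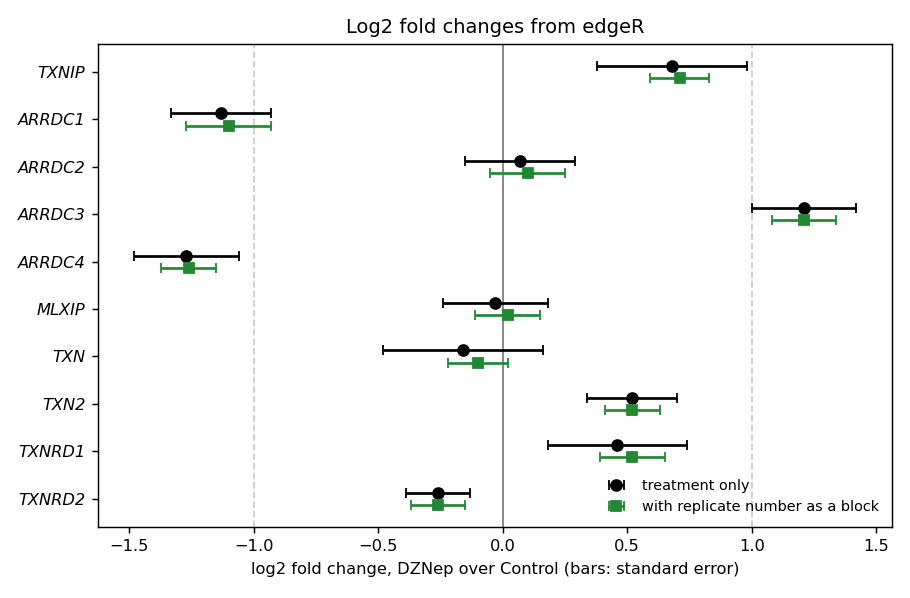
Log2 fold changes of DZNep over Control with their standard errors, from edgeR with treatment alone (black circles) and blocked on the replicate number (green squares). Dashed lines mark an absolute log2 fold change of 1. ARRDC1, ARRDC3 and ARRDC4 lie beyond it in both fits, and the standard error of TXNIP shrinks from 0.30 to 0.12 with the block.

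The study's own thresholds also ask for an absolute log2 fold change over 1, which ARRDC1, ARRDC3 and ARRDC4 passed and TXN2 did not. ARRDC1 fell short of it without replicate 1 (-0.99) or replicate 4 (-0.97) of both groups. Both thresholds were passed by 24.2% of all genes tested, or 26% with the block, where these 3 passed too. The groups did not overlap for 4 of the 10 genes, next to 38.9% of all genes tested. In the fit with the block, 6 of the 10 genes passed an adjusted p-value of 0.05, with TXNIP and TXNRD1 added to the others, next to 59% of all genes.

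Ratios of transcripts within a library need no scaling between libraries, and 4 were compared with a two-sided exact permutation test. The log2 ratio of TXNIP to ARRDC4 counts was 0.09, 0.21, 0.57 and -0.16 in Control replicates 1 to 4 and 2.20, 1.91, 2.40 and 2.06 in the DZNep libraries. The genes were thus counted about equally in the Control libraries, and TXNIP exceeded ARRDC4 in every DZNep library. The ratio was higher by 1.97 with a standard error of 0.18, and its exact permutation p of 0.0286 is the smallest that 4 libraries against 4 allow (n = 4 each). After adjustment over the 4 ratios it was 0.0571.

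The ratio of TXN to TXN2 was lower with DZNep, in groups that did not overlap, going from 1.30 ± 0.41 to 0.68 ± 0.19 on the log2 scale (SD, n = 4 each, exact permutation p = 0.0286, adjusted p = 0.0571). It was lower in all 4 pairs, by 0.81, 0.32, 0.48 and 0.87 for replicates 1 to 4. The ratio of TXNIP to TXN had overlapping groups, -1.70 ± 1.14 in Control and -0.88 ± 0.82 in the DZNep libraries, with an exact permutation p of 0.314 (n = 4 each). It was lowest in replicate 4 and highest in replicate 3 of each group. The ratio of TXNRD1 to TXNRD2 was 1.18 ± 0.72 and 1.96 ± 0.38, also with overlap (exact permutation p = 0.171, n = 4 each). Both of these ratios were higher with DZNep in all 4 pairs.

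**Figure D4:**
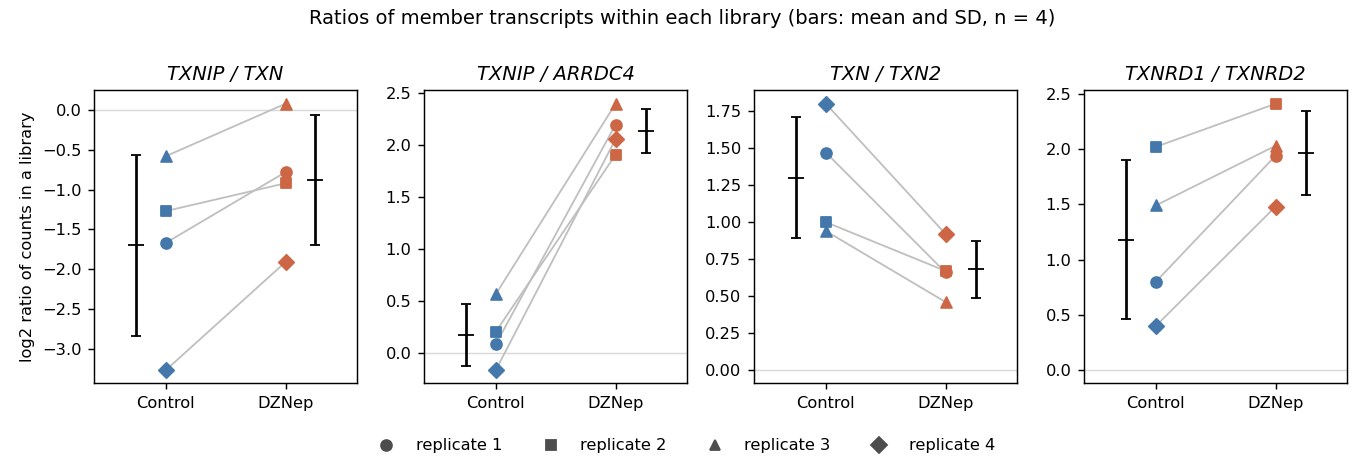
Log2 ratios of the counts of gene pairs within each library (y axis), with Control in blue, DZNep in orange and lines joining the same replicate number. Black bars give the mean and SD of 4 libraries. The ratio of TXNIP to ARRDC4 moves from between -0.16 and 0.57 to between 1.91 and 2.40, and the other ratios shift less relative to their spread.

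Levels of different genes were compared as length-scaled CPM, that is TMM-scaled CPM divided by the merged exon length in kilobases. TXN stood highest in the Control, at 310.4 ± 139.5, followed by TXN2 at 72.3 ± 11.6 (SD, n = 4 each). TXNIP at 26.4 ± 9.58, ARRDC4 at 20.0 ± 4.74 and TXNRD1 at 18.8 ± 7.58 followed, and these neighbours did not differ beyond their spread. MLXIP (8.74 ± 2.81), ARRDC1 (7.91 ± 2.00) and TXNRD2 (6.40 ± 0.60) formed a lower group with overlapping ranges, and ARRDC3 (2.09 ± 0.44) and ARRDC2 (2.07 ± 0.58) were lowest. With DZNep, TXN, TXN2 and TXNIP kept their order at 278 ± 86.7, 104 ± 19.5 and 42.2 ± 12.8. ARRDC4 moved from place 4 to place 6 with 8.30 ± 1.55, where its range lay below that of TXNIP and overlapped that of MLXIP. The mean of ARRDC3, 4.81 ± 0.90, exceeded that of ARRDC1, 3.62 ± 0.46, with overlapping ranges. Merged exons include those of rare isoforms, which lowers the values of genes with many isoforms.

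The genes most like TXNIP were ranked by the root mean square difference, over the 8 libraries, of the log2 CPM relative to the Control mean of each gene. The shift with DZNep enters this measure, so genes near each other have similar log2 fold changes by construction. Among 13232 genes, CALHM2 was nearest with 0.20, followed by ZNF425, BCL2, UBE2H and USP30 with 0.24 each, while the median over all genes was 0.77. BCL2, the antiapoptotic protein, had a log2 fold change of 0.60 (edgeR adjusted p = 0.0890), and UBE2H, a ubiquitin-conjugating enzyme, had 0.81 (edgeR adjusted p = 0.0140). Of the other 9 genes followed here, ARRDC3 came closest to TXNIP, at place 954 with 0.44. For ARRDC4 the nearest genes were SPECC1L (0.13), FAM219A (0.14), SCYL3 (0.15), ZNF85 (0.15) and ASTN2 (0.18), with log2 fold changes between -1.39 and -1.18. ARRDC1 was at place 755 and TXNIP at place 11192 of that order.

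Among relatives and partners of the alpha-arrestins, no gene passed edgeR's test, next to 40.8% of all genes tested. Of 8 genes with the arrestin fold, 6 were tested, among them the beta-arrestins ARRB1 and ARRB2 and the retromer subunits VPS26A and VPS26B. By edgeR 0 passed the threshold and by DESeq2 0, and 0 had an unadjusted p under 0.05. Of 10 genes for NEDD4-family ligases and TSG101, 0 passed by edgeR and 0 by DESeq2, with 1 higher at an unadjusted p under 0.05. That gene was WWP2, named after its values were seen, with a log2 difference of 0.58 (edgeR adjusted p = 0.0821, limma adjusted p = 0.0484). With the block, 3 of these 10 were higher, next to 28.8% of all genes.

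Glucose uptake and glycolysis genes, the pathway that TXNIP restrains and that feeds MLXIP, were represented by 22 genes. Of these, 4 rose and 3 fell, near or below the 19.1% higher and 21.8% lower of all genes, with a median log2 fold change of -0.04. SLC2A3, the high-affinity transporter GLUT3, had 421, 343, 540 and 227 normalized counts in Control and 1768, 2009, 4280 and 1478 in the DZNep libraries. Its log2 fold change was 2.61 ± 0.38 (SE), at an adjusted p of 0.000434 by edgeR. Like TXNIP, it was highest in replicate 3 and lowest in replicate 4 of each group. SLC2A1 (GLUT1), in contrast, had a log2 difference of -0.01 (edgeR adjusted p = 0.977).

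PFKP, the platelet isoform of phosphofructokinase, fell from a mean of 4194 ± 707 to 711 ± 108 normalized counts (SD, n = 4), or -2.59 on the log2 scale (edgeR adjusted p = 1.09e-05). PFKL, the liver isoform, had -1.34 (adjusted p 0.000230), and HK2, the hexokinase that makes glucose 6-phosphate, had -1.09 (adjusted p 0.00299). The related HK1 (0.13, adjusted p 0.695) and PFKM (-0.04, adjusted p 0.873) did not pass. The lactate dehydrogenase genes LDHA (-0.43, adjusted p 0.0708) and LDHB (-0.30, adjusted p 0.201) passed only when blocked on the replicate number (adjusted p 0.0159 and 0.0395). The largest rises beside SLC2A3 were those of the neuronal enolase ENO2 (1.26, adjusted p 0.000169) and the regulatory enzyme PFKFB4 (1.13, adjusted p 0.00632).

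**Figure D5:**
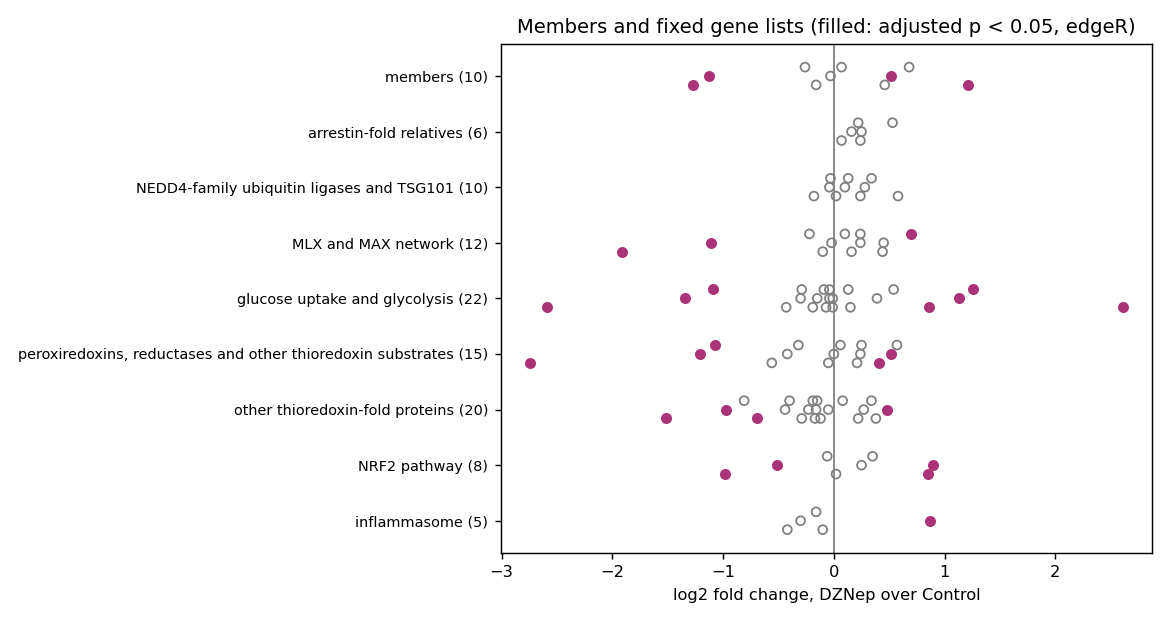
Log2 fold changes of DZNep over Control (x axis) for the 10 genes and for lists of related genes, with the number tested in parentheses. Filled points passed an adjusted p-value of 0.05 with edgeR and open points did not. Filled points lie on both sides of 0 in the lists for glycolysis, peroxiredoxins and reductases, and other thioredoxin-fold proteins. There are 0 filled points among arrestin-fold relatives and NEDD4-family ligases.

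Downstream of thioredoxin, methionine sulfoxide reductases, which repair oxidized methionine with electrons from thioredoxin, split by gene. MSRB2, the mitochondrial form, had normalized counts of 1716, 511, 911 and 1768 in Control and 179, 129, 174 and 268 in the DZNep libraries. It fell by 2.74 ± 0.40 (SE) on the log2 scale (edgeR adjusted p = 0.000440). MSRA fell by 1.07 (adjusted p 0.00322), while MSRB1 rose by 0.52 (adjusted p 0.0285) and MSRB3 by 0.41 (adjusted p 0.0428). PRDX5, a peroxiredoxin found in mitochondria and peroxisomes, fell by 1.21 (adjusted p 0.0128), and the other 5 peroxiredoxins did not pass. Among these, PRDX6 (-0.56, edgeR adjusted p = 0.0514) passed with the block (0.000494) and with DESeq2 (0.0396). In all, 2 of the 15 peroxiredoxin, reductase and thioredoxin partner genes rose and 3 fell. Of all genes tested, 19.1% were higher and 21.8% lower.

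Of 20 other proteins with a thioredoxin fold, 1 rose and 3 fell, next to 19.1% higher and 21.8% lower of all genes. TMX4, a thioredoxin-like protein of the endoplasmic reticulum membrane, had a log2 fold change of -1.52 (adjusted p 0.00151), TXNDC11 had -0.97 (adjusted p 0.000478) and nucleoredoxin (NXN) had -0.69 (adjusted p 0.00450). The gene that rose was GLRX5, a mitochondrial glutaredoxin of iron-sulfur cluster assembly, by 0.48 (adjusted p 0.0318). TXNRD3, the reductase paralog of TXNRD1 and TXNRD2, had -0.81, at an adjusted p of 0.0607 (0.00214 when blocked).

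NRF2, the oxidative stress factor of which TXN and TXNRD1 are textbook targets, was represented by 8 genes, of which 2 rose and 2 fell. These numbers stand next to 19.1% higher and 21.8% lower of all genes tested. KEAP1, the inhibitor that targets NRF2 for degradation, rose from a mean of 2465 ± 192 to 4701 ± 303 normalized counts (SD, n = 4), or 0.90 on the log2 scale (edgeR adjusted p = 0.000410). HMOX1, heme oxygenase, rose by 0.85 (adjusted p 0.0331). GCLM, the modifier subunit of glutathione synthesis, fell by 0.98 (adjusted p 0.000231) and the cystine transporter SLC7A11 fell by 0.51 (adjusted p 0.0316). NFE2L2, which encodes NRF2, had a log2 fold change of 0.02 (adjusted p 0.954). Of 5 inflammasome genes, a complex to which TXNIP can bind, IL18 rose from a mean of 27.5 ± 5.90 to 51.3 ± 12.7 normalized counts (SD, n = 4, log2 fold change 0.87, adjusted p 0.0363), and the other 4 did not pass.

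The median log2 fold changes of these lists lay between -0.16, for other thioredoxin-fold proteins and inflammasome genes, and 0.23, for arrestin-fold relatives, beside -0.03 for all genes tested. With the block, the number higher and lower was 3 and 2 in the MLX and MAX network and 6 and 5 among glycolysis genes. It was 3 and 5 among peroxiredoxin, reductase and thioredoxin partner genes and 3 and 6 among other thioredoxin-fold proteins. Of all genes, 28.8% were higher and 30.2% lower with the block.

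Markers that HEK293T cells are known to express were present in all libraries, with a summed level between 919 and 1486 CPM over 8 genes in Control and between 1122 and 1356 CPM in the DZNep libraries. Among them KRT8 (2.44, edgeR adjusted p = 0.000133) and KRT18 (0.83, adjusted p 0.0453), which overlap on opposite strands, rose on the log2 scale. INA (-0.63, adjusted p 0.027) and PAX2 (-0.54, adjusted p 0.0228) fell. Of the 8 markers, 2 thus rose and 2 fell, next to 19.1% higher and 21.8% lower of all genes tested. Markers of blood, liver, endothelial and fibroblast cells summed to between 68.7 and 129 CPM in Control and between 78.9 and 133 CPM in the DZNep libraries over 11 genes. The fibroblast marker COL1A1 stood far above the rest, with 2248 to 4386 normalized counts in Control and 2365 to 4682 in the DZNep libraries. No other marker of this list exceeded 450.2 in any library. Of these 11, 6 were tested and 0 passed by edgeR, with 1 at an unadjusted p under 0.05, and 0 of the 5 with an adjusted p from DESeq2 passed. The gene at an unadjusted p under 0.05 was LYZ, named after its values were seen, with 450.2 normalized counts in DZNep replicate 2 and at most 30.8 in the other libraries. The T cell markers CD3D, CD3E and CD2 had too few reads to be tested and were at 0 in every Control library. CD3E had 8.16, 16.9, 15.6 and 40.5 normalized counts in DZNep replicates 1 to 4, so that all were above the Control value of 0, while CD3D and CD2 were present in 3 DZNep libraries each with at most 3.38 normalized counts. MS4A1 was at 0 counts in every library. The part of these transcripts in the other results was not tested.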

How the data were processed

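RNA from 4 Control and 4 DZNep libraries of HEK293T was sequenced by the study, and, per the submitters' processing notes, reads were trimmed with Trimmomatic 0.36, mapped with STAR 2.5.2b and counted with featureCounts of Subread 1.5.2. The authors deposited a table of raw read counts per Ensembl gene and a table of size-factor normalized counts (a signal with no fixed unit, deposited for the 19118 genes whose counts summed to over 80). The strand setting and annotation release of the counting are not given in the sources used here. Symbols came from GENCODE v44, matched for 56410 of 57500 identifiers, and exon lengths and coordinates from the same annotation of GRCh38.

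The deposited counts were tested with edgeR 4.0.16 in R 4.3.3 (filterByExpr, TMM scaling, quasi-likelihood test, treatment as the only term), with Benjamini-Hochberg adjustment over the 19171 genes kept. The thresholds were an adjusted p-value of 0.05 and, for the study's double criterion, an absolute log2 fold change of 1. Printed normalized counts are the deposited ones. Alternatives were DESeq2 1.42.0, limma 3.58.1 on log2(normalized count + 1), glmTreat, other scalings and filters, each library or replicate number left out, and the replicate number as a block. Replicate numbers in the labels were taken to pair libraries, though the labels do not say what the numbers mark. In the same counts that the block was fitted to, deviations of same-numbered libraries from their group means correlated at 0.136, 0.492, 0.429 and 0.673 across genes. Some libraries of different numbers also correlated, Control 1 with DZNep 4 at 0.529 (above its own number), Control 2 with DZNep 3 at 0.398 and Control 3 with DZNep 2 at 0.343. Named genes are all 10 followed here, the 5 most alike in pattern to TXNIP and ARRDC4, overlapping genes, and of each related list the 3 with the largest absolute log2 fold change among those past the threshold in each direction. SLC2A1, HK1, PFKM, LDHA, LDHB, PRDX6, NFE2L2, TXNRD3, WWP2, the markers of other cell types and the arrestin-fold genes fall outside this rule and were picked with their values in view. The result of 1 further gene is left out. The 10 genes and the lists were chosen with earlier results of these data known. The edgeR script was tested on simulated data. Chi-square statistics per degree of freedom were at least 27.1 for every pair of libraries of a group, so none was treated as a resequencing. Each library was counted as 1 replicate, though this statistic cannot tell separate cultures from separate RNA preparations of the same culture. Counts carry no molecular identifiers, and library totals of 25043058 to 44902779 give each of the 10 genes at least 249 reads per library.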

Additional observations from a re-analysis of the deposited data

Results flagged for a closer look

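In a check of the 10 genes in both groups, 20 sets of 4 libraries, 2 libraries stood apart from the other 3 of their group by a gap past the 95% critical value of Dixon's test. For ARRDC1 the DZNep library of replicate 2 had 627 normalized counts, above the other DZNep libraries. For ARRDC3 the Control library of replicate 4 had 268 normalized counts, below the other Control libraries. Chance alone flags about 1 in 20 such sets, so that 1 would be found by chance among these. Both genes kept their call without the library concerned.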

How the results depend on the processing

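ARRDC1, ARRDC3 and ARRDC4 kept their direction and an adjusted p under 0.05 under all alternatives except the test against a log2 fold change of 1 (edgeR's glmTreat), in which 0 of the 10 genes passed higher and 0 lower, with 1 at an unadjusted p under 0.05 (lowest adjusted p 0.226). By DESeq2 2 rose and 2 fell. With libraries left out, ARRDC1 ranged from -1.32 to -0.97, ARRDC3 from 1.06 to 1.33 and ARRDC4 from -1.41 to -1.15 on the log2 scale, and ARRDC1 missed an absolute log2 fold change of 1 without replicate 1 (-0.99) or 4 (-0.97). The number of the 10 genes higher was 4 with the replicate block and between 1 and 2 with libraries left out.

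With the replicate number as a block, TXNIP (0.71) and TXNRD1 (0.52) passed the threshold, and the number of all genes higher went from 3656 to 5528. No other call among the 10 genes changed with the block. With libraries left out, TXNIP ranged from 0.46 to 0.87 without passing, TXN2 from 0.42 to 0.62, TXNRD1 from 0.27 to 0.72, TXN from -0.37 to 0.15, ARRDC2 from -0.07 to 0.25 and MLXIP from -0.16 to 0.18. The sign of MLXIP also turned with DESeq2 (0.00), library totals alone (0.07), no filter (0.01), the block (0.02) and limma (0.04), and the cause was not tested. Over all genes, those higher past both thresholds numbered 1141 with at least 10 reads in every library, where fewer genes were tested, and 942 with glmTreat, against 2041. Those lower numbered 1066 with glmTreat, against 2589. With libraries left out, the number higher at the adjusted p alone ranged from 2176 to 4012 and the number lower from 2470 to 4571, the fewest without replicate 1. TXN2 also lost its call with replicate number 1, 2 or 3 left out of both groups (edgeR adjusted p = 0.165, 0.0668 and 0.0929). The 4 ratios kept their direction in every run. The 4 libraries a group limit any exact permutation p to at least 0.0286.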
